A study of Rattus norvegicus with 24 samples.

Results

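A set of 7 genes of the synapse was followed through the carotid bodies (CBs) of normotensive and hypertensive rats: Nxph1, Syt6, Cpne5, Apba2, Dlgap3, Grin2a and Grid1. They are 7 of the 32623 Ensembl genes counted, and each was found by the single identifier that the names table of the study pairs with its symbol. The genes were chosen by their strain difference in these same libraries, so their strain values, within each side too, only describe them. Where the number of these genes past a threshold between strains is given, it describes the choice and is no independent test. The difference between the sides of the CB, and the interaction of strain with side, were not used in the choice and were tested.

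Messenger RNA of both CBs of 12 male rats, aged 12 to 14 weeks, was sequenced with a library for each CB. Wistar Kyoto rats (WKY/NHsd, 6 animals) were the normotensive strain and spontaneously hypertensive (SH) rats (SHR/NHsd, 6 animals) the hypertensive strain, and no treatment of either is named in the sample labels. All animals were perfused with cold saline before the whole organ was cut out, so a library holds every cell type of the CB and whatever tissue came with it. Strain is the only difference that the labels give between the 2 sets of rats, and the strains differ in many genes besides those that set blood pressure.

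Glomus cells, the oxygen sensors of the CB, release transmitter from vesicles onto the endings of the carotid sinus nerve. Vesicle proteins such as the synaptotagmins serve that release, adhesion proteins align the releasing and receiving membranes, and receptors and scaffold proteins hold the receiving side. Glutamate acts through ion channel receptors, of which the NMDA type needs both glutamate and a depolarised membrane to open.

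Totals ran from 9198341 to 13655419 counts per library, with a median of 9795388 over 23 libraries. The right CB of SH rat 34 stood apart from all others: Tg, which encodes the thyroid hormone precursor thyroglobulin, reached a CPM of 7849 there (CPM is the count per 1e6 counts of the library), against 0.0959 to 10.7 in WKY libraries and 0.455 to 215 in the other SH libraries. The glomus cell markers Chgb and Dbh, a granule protein and the noradrenaline-making enzyme, stood at 3.84 and 2.10 CPM in it, against 830 and 44.8 CPM in the left CB of the same rat. The study did not use this library in its table of genes, and values below are over the 23 others (12 WKY, 11 SHR) unless all 24 are named. Library sizes were scaled by edgeR's TMM method, and levels of different genes are not compared because a longer gene collects more counts.

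The promoters of the 3 genes with the largest strain differences are shown for their contrast in base content, since the RNA of all 3 was higher in SH rats. Of the 7 genes, 5 had an entry in the RefSeq promoter table of build GRCr8. Each window holds 250 bases before and 50 bases after the annotated start, written 5′ to 3′ on the gene's own strand: Nxph1 at chr4:37964075-37964374 (+), Syt6 at chr2:193781226-193781525 (+) and Cpne5 at chr20:7290547-7290846 (−). Capitals mark the letters CACGTG (an E-box), ACGTG (the core of the hypoxia response element, which is also inside every E-box) and GGGCGG (a GC box), each searched on both strands.
Nxph1: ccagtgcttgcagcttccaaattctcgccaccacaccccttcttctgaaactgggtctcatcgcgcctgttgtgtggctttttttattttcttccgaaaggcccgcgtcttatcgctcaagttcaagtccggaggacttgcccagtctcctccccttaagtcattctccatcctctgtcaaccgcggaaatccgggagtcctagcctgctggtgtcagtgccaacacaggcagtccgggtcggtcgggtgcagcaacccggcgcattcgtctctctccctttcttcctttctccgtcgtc
Syt6: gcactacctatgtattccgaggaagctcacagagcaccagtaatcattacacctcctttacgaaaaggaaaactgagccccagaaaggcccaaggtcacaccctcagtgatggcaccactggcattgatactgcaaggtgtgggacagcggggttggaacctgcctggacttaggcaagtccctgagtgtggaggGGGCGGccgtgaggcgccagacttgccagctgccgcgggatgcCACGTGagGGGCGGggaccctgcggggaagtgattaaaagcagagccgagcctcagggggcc
Cpne5: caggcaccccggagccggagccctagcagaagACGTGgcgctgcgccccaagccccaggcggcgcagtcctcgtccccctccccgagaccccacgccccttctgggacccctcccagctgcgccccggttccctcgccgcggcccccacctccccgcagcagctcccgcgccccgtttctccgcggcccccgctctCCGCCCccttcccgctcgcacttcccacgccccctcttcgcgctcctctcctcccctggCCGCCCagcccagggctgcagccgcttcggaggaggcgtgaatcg
The Cpne5 window was 76.3% G and C, the Syt6 window 59.7% and the Nxph1 window 56.0%, with a median of 51.7% over 33469 RefSeq promoters. Syt6 held 1 E-box and 2 GC boxes, one of them 2 bases after the E-box. Cpne5 held 1 ACGTG and 2 GC boxes, and Nxph1 held none of these letters. Of all promoters, 6.42% held an E-box, 19.3% held ACGTG and 33.1% held a GC box. The cAMP response element TGACGTCA, present in 1.83% of all promoters, was in none of the 5 windows, and those of Apba2 and Dlgap3 held no match to any of the 4. The letters were chosen with the sequences at hand, the genome is that of the reference strain and not of WKY or SH rats, and a match is a stretch of letters and not a shown binding site.

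In the comparison of strains, 6 of the 7 genes passed an adjusted p of 0.05 in edgeR's quasi-likelihood test, against 20.1% of all 14258 genes tested and 10.2% that passed as higher in SH rats. The 7 genes were picked for this difference, so nothing is read from the count. Grin2a alone did not pass. The differences spanned a wide range, from 0.53 on the log2 scale for Dlgap3 to 2.99 for Nxph1, with a median of 1.11, beside a median of 0.006 over all genes tested. For Nxph1, Syt6, Cpne5 and Apba2 every SH library lay above every WKY library, which held for 0.926% of all genes tested. For Dlgap3, Grin2a and Grid1 the libraries of the strains overlapped.

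**Figure D1:**
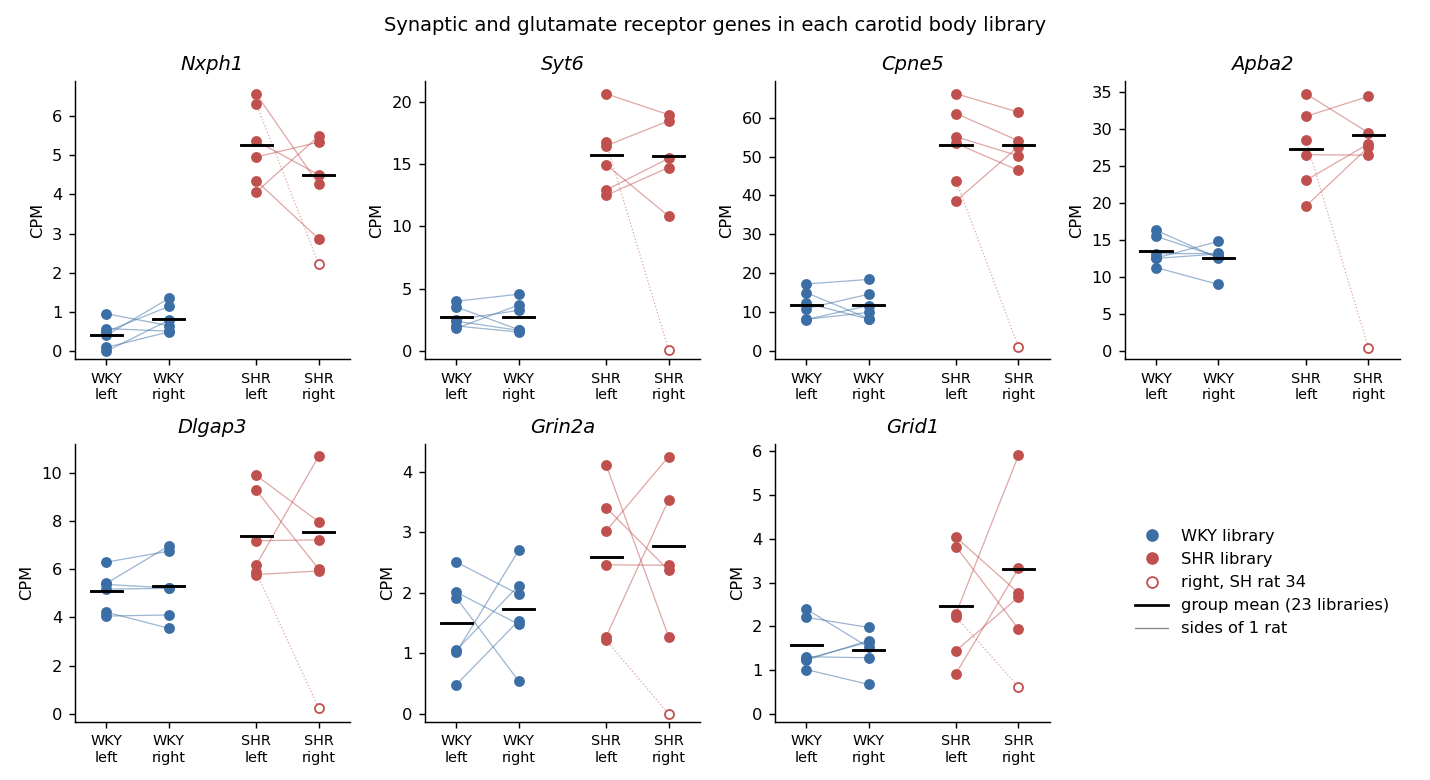
CPM (linear axis, scaled over all 24 libraries) of each gene in each CB library, by strain and side. Points are libraries, thin lines join the sides of the same rat, black bars are group means over 23 libraries and the hollow point is the right CB of SH rat 34. The filled SH points of Nxph1, Syt6, Cpne5 and Apba2 lie above all WKY points, while those of Dlgap3, Grin2a and Grid1 mix with them. The hollow point lies above all WKY points for Nxph1 and below them for Syt6, Cpne5 and Apba2.

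Nxph1 encodes neurexophilin 1, a secreted glycoprotein that binds alpha-neurexins, the presynaptic adhesion proteins. It was close to the floor of detection in WKY rats. The left CBs of WKY rats held 1, 5, 6, 10, 4 and 0 counts and their right CBs 5, 11, 5, 6, 14 and 9 counts, for rats 32, 33, 34, 36, 37 and 41. The left CBs of SH rats held 48, 64, 59, 57, 39 and 55 counts for rats 30, 31, 33, 34, 36 and 37, and the right CBs 54, 59, 51, 53 and 27 for the same rats without 34. The highest WKY library thus had 14 counts and the lowest SH library 27, and no library of the strains overlapped. As rat means over both sides, the level was 0.631 ± 0.249 CPM in WKY and 5.10 ± 0.887 CPM in SH rats (SD, n = 6 rats each), an 8.08-fold higher mean. The fitted log2 fold change was 2.99 (SE 0.28). WKY libraries averaged 6.33 counts, under the mean normalized count of 10 required for a test, so Nxph1 entered the test through its level in SH rats.

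Syt6 encodes a synaptotagmin, a membrane protein with paired C2 domains that is best known from the vesicle fusion of the sperm acrosome. WKY libraries ran from 1.55 to 4.63 CPM with a median of 2.50, and SH libraries from 10.99 to 20.9 CPM with a median of 15.6. The lowest SH library, the right CB of rat 37, had 102 counts, and the highest WKY library, the right CB of rat 33, had 44. Over rats the level was 2.77 ± 0.889 CPM in WKY and 15.98 ± 2.69 CPM in SH rats (SD, n = 6 each), a 5.77-fold higher mean, and the log2 fold change was 2.52 (SE 0.166).

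Cpne5 encodes a copine, a cytosolic protein that binds phospholipids when calcium rises. Its WKY libraries lay between 8.17 and 18.6 CPM (median 11.5) and its SH libraries between 39.03 and 67.1 CPM (median 54.1). Both CBs of WKY rat 41 were at the top of their strain, at 17.5 CPM on the left and 18.6 on the right, while the other WKY libraries reached at most 15.2 CPM. The means over rats were 12.1 ± 3.23 CPM in WKY and 52.9 ± 7.70 CPM in SH rats (SD, n = 6 each), or 4.38-fold higher, with a log2 fold change of 2.14 (SE 0.136). At a mean of 124 counts per WKY library, counting alone would spread the libraries by 8.98%, whereas they spread by 30.7%.

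Apba2 encodes Mint2, an adaptor that binds the amyloid precursor protein and the vesicle fusion protein Munc18. Its WKY libraries ran from 9.08 to 16.5 CPM with a median of 13.1, and the SH libraries from 19.8 to 35.2 CPM with a median of 28.2. The highest WKY library was thus below the lowest SH library. Over rats the level was 13.2 ± 1.58 CPM in WKY and 28.6 ± 3.81 CPM in SH rats (SD, n = 6 each), 2.16-fold higher, with a log2 fold change of 1.11 (SE 0.0933), the smallest error of the 7 genes.

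Dlgap3 encodes a scaffold protein of the postsynaptic density that ties PSD-95 to Shank proteins. WKY libraries ran from 3.57 to 7.05 CPM with a median of 5.28, and SH libraries from 5.84 to 10.8 CPM with a median of 7.27. Of the 11 SH libraries, 6 lay above every WKY library, and of the 6 SH rats 4 had a mean above every WKY rat. The means were 5.25 ± 1.09 CPM in WKY and 7.42 ± 1.31 CPM in SH rats (SD, n = 6 each), 1.41-fold higher, with a log2 fold change of 0.53 (SE 0.138).

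Both receptor genes were counted at low depth. Grin2a encodes GluN2A, an NMDA receptor subunit that binds glutamate, and Grid1 encodes GluD1, a receptor of the delta class that holds synapses together through cerebellins and neurexins. Grin2a ran from 5 to 28 counts in WKY libraries and from 11 to 52 counts in SH libraries. In CPM its median was 1.74 in WKY (0.488 to 2.73) and 2.52 in SH libraries (1.23 to 4.30). The rats averaged 1.63 ± 0.447 CPM and 2.58 ± 0.801 CPM (SD, n = 6 each), with a log2 fold change of 0.74 (SE 0.269). SH rat 34, of which only the left CB entered, had the lowest SH value and lay inside the WKY range, while the other 5 SH rats lay above every WKY rat.

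Grid1 ran from 7 to 25 counts in WKY and from 9 to 57 counts in SH libraries. Its median was 1.43 CPM in WKY libraries (0.682 to 2.42) and 2.70 CPM in SH libraries (0.946 to 5.98), and 6 of the 11 SH libraries lay above every WKY library. The means over rats were 1.53 ± 0.461 and 2.83 ± 0.839 CPM (SD, n = 6 each), with a log2 fold change of 0.91 (SE 0.247). The whole-rat means separated better than the libraries, with 5 of 6 SH rats above every WKY rat. Every SH rat lay above every WKY rat for 3.39% of all genes tested, among them Nxph1, Syt6, Cpne5 and Apba2 and none of the other three.

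The counts of the receptor genes also varied between the sides of a rat, with neither side higher throughout. In SH rats the left and right CBs of rat 31 held 9 and 46 Grid1 counts, those of rat 36 held 22 and 57, those of rat 33 held 42 and 22 and those of rat 37 held 51 and 26. The higher side thus changed from rat to rat. On the log2 scale the SD of Grid1 within SH rats was 0.696 and the SD of their rat means 0.35, and in WKY rats the order was the other way, with 0.226 within and 0.341 between rats. Grin2a had the larger SD within rats in both strains, with 0.613 within and 0.348 between WKY rats and 0.608 within and 0.42 between SH rats. Nxph1 did too, with 0.588 within and 0.353 between WKY rats and 0.292 within and 0.245 between SH rats. The larger SD was also within rats for Dlgap3 in SH rats alone (0.313 and 0.232). In WKY rats alone it was so for Syt6 (0.392 and 0.377) and Cpne5 (0.349 and 0.343). For Apba2 the values were 0.191 within and 0.193 between SH rats. Each value between rats is the SD of the rat means. A mean of both sides spreads less than a single side even where rats do not differ. Nothing is therefore read from which of the values is larger. Counting alone would spread the libraries of Grid1 by 18.1% in SH and 25.5% in WKY rats, and they spread by 48.6% and 32.8%. For Grin2a counting alone would give 18.7% in SH and 24.6% in WKY rats, and the libraries spread by 41.3% and 44.8%.

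The left and right CBs were compared with strain in the fit. None of the 7 genes passed, and neither did any of the 14258 genes tested (0.0%), although 702 had an unadjusted p under 0.05. DESeq2's Wald test also called 0 genes, with 716 under an unadjusted 0.05. The log2 fold changes of left over right lay between -0.17 (Nxph1, SE 0.271, and Grid1, SE 0.247) and 0.01 (Cpne5, SE 0.134, and Apba2, SE 0.093), with adjusted p from 0.972 to 0.998 in edgeR. For Grin2a the value was -0.15 (SE 0.269), for Dlgap3 -0.05 (SE 0.138) and for Syt6 -0.01 (SE 0.162). Side differences within these errors could not be detected, and the errors of Nxph1, Grin2a and Grid1 were the widest. With the adjustment over 14258 genes, differences well above these errors could have been missed as well. Among the 11 rats with both CBs, the left was higher in 5 or 6 for each of the 7 genes.

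**Figure D2:**
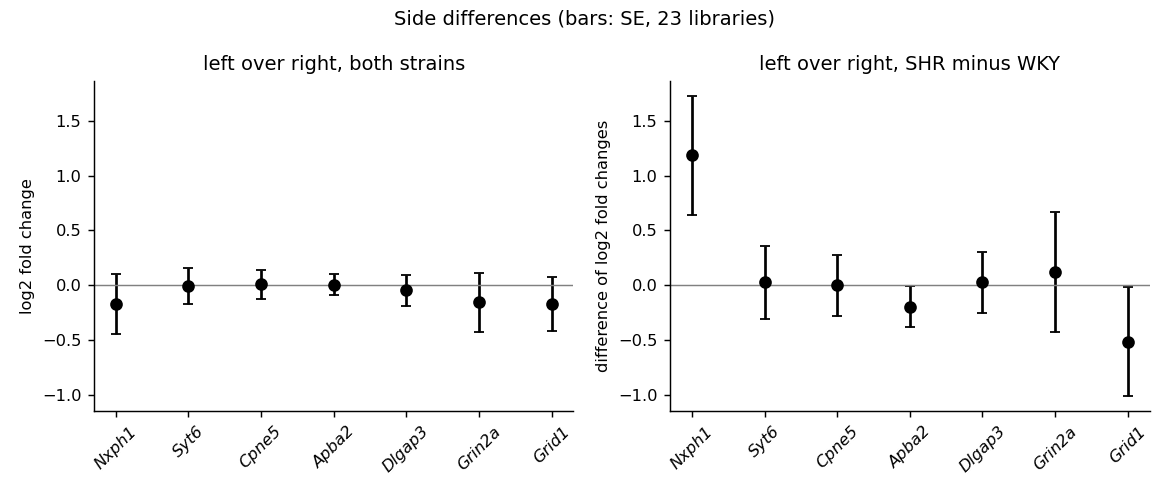
Left panel: log2 fold change of left over right over both strains for each gene. Right panel: the same change in SHR minus that in WKY. Points are edgeR estimates over 23 libraries and bars are SE. All points of the left panel lie within 0.18 of 0, and in the right panel Nxph1 stands highest at 1.18.

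Whether the strain difference varied with side was tested as an interaction, which 0 of 14258 genes passed (0.0%; 438 had an unadjusted p under 0.05, and DESeq2's Wald test passed 0, with 474). Nxph1 had the largest estimate of the 7, at 1.18 (SE 0.54, adjusted p = 0.999, unadjusted p = 0.0371 in edgeR). In WKY rats its left CBs averaged 0.429 ± 0.351 CPM and the right 0.833 ± 0.356 CPM (SD, n = 6 each). In SH rats the order was the other way, with 5.35 ± 1.05 CPM on the left (n = 6) and 4.55 ± 1.06 on the right (n = 5). As separate fits, the strain log2 fold change of Nxph1 was 3.61 (SE 0.422) in left and 2.42 (SE 0.296) in right CBs. The difference rests on WKY libraries of 0 to 14 counts. The other estimates were -0.51 for Grid1 (SE 0.495), -0.19 for Apba2 (SE 0.186), 0.12 for Grin2a (SE 0.546) and between 0.0007 and 0.03 for Cpne5, Syt6 and Dlgap3.

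**Figure D3:**
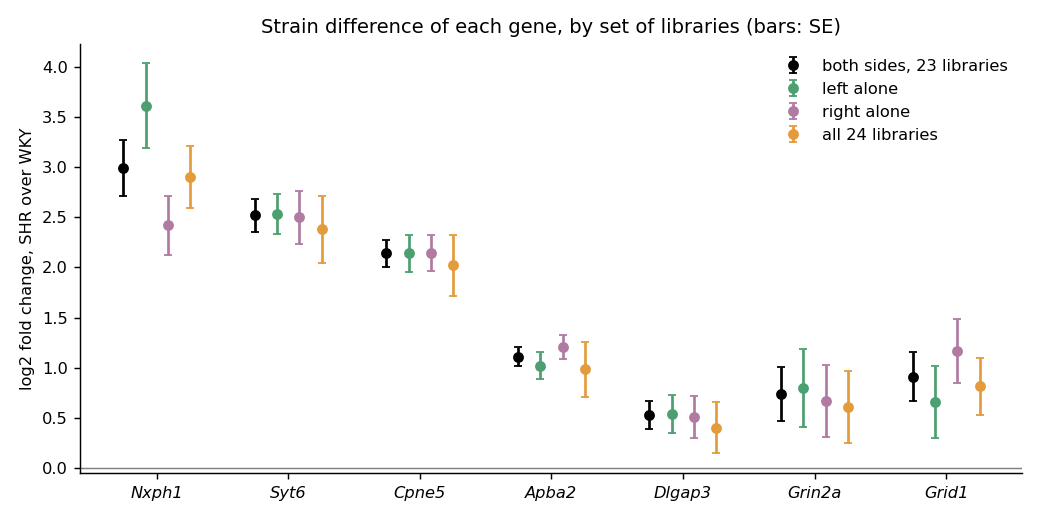
Log2 fold change of SHR over WKY for each gene (bars: SE) over both sides (23 libraries), in left CBs alone, in right CBs alone and over all 24 libraries. The 4 estimates of Syt6, Cpne5 and Dlgap3 lie close together, and Nxph1 runs from 2.42 on the right to 3.61 on the left.

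The right CB of SH rat 34, which the choice of genes did not use, did not carry the levels of the other SH libraries. Syt6 had 1 count there and 151 in the left CB of the same rat, Cpne5 9 and 395, and Apba2 4 and 257. As a share of the left CPM, Syt6 was at 0.739% (exact 95% interval 0.0186 to 4.18%), Cpne5 at 2.54% (1.15 to 4.88%) and Apba2 at 1.74% (0.47 to 4.5%). In the 5 other SH rats the right CB had 72.5 to 120% of the left for Syt6, 87.0 to 136% for Cpne5 and 84.9 to 141% for Apba2. These intervals cover counting error alone.

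Dlgap3 had 2 counts against 53 on the left, and Grin2a had 0 against 11, for which the exact 95% interval of the share runs up to 44.5% of the left. Grid1 had 5 against 20, or 27.9% (8.19 to 76.6%). In the right CB of SH rat 34 these 6 genes were all below every WKY library. So were most of the 31 other genes of the synaptic lists described below, and the share over all genes was not counted. Nxph1 was the exception among the 7, with 18 counts against 57, or 2.23 CPM against 6.32 CPM. That was 35.3% of the left (19.5 to 60.8%) and lay above every one of the 12 WKY libraries, whose highest was 1.35 CPM on the same scale. Sv2b, Lrrtm2, Lrrtm4 and Nrcam of those lists lay above every WKY library there too. With all 24 libraries in the fit, 4 of the 7 genes passed between strains (Nxph1, Syt6, Cpne5 and Apba2), against 10.4% of the 14276 genes then tested.

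The paired markers of glomus cells and neurons were low in that library too. Their share of the left CB was 0.462% for Chgb, 4.7% for Dbh and 6.88% for Chga. It was 26.0% for Ret, the receptor for the family of glial cell line-derived neurotrophic factors. It was 6.28% for the neuronal filament gene Prph and 40.5% for the sodium channel gene Scn9a. The 9 macrophage markers lay between 40.8 and 126% of the left, with C1qa, a complement gene, at the median of 67.9%. Low shares were not limited to glomus cell and neuron markers. The paired endothelial markers lay between 22.2 and 75.1% and the smooth muscle markers between 28.4 and 82.8%. Adipocyte markers ran from 64.1 to 6200%, and the sustentacular marker with a symbol was at 5850%.

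**Figure D4:**
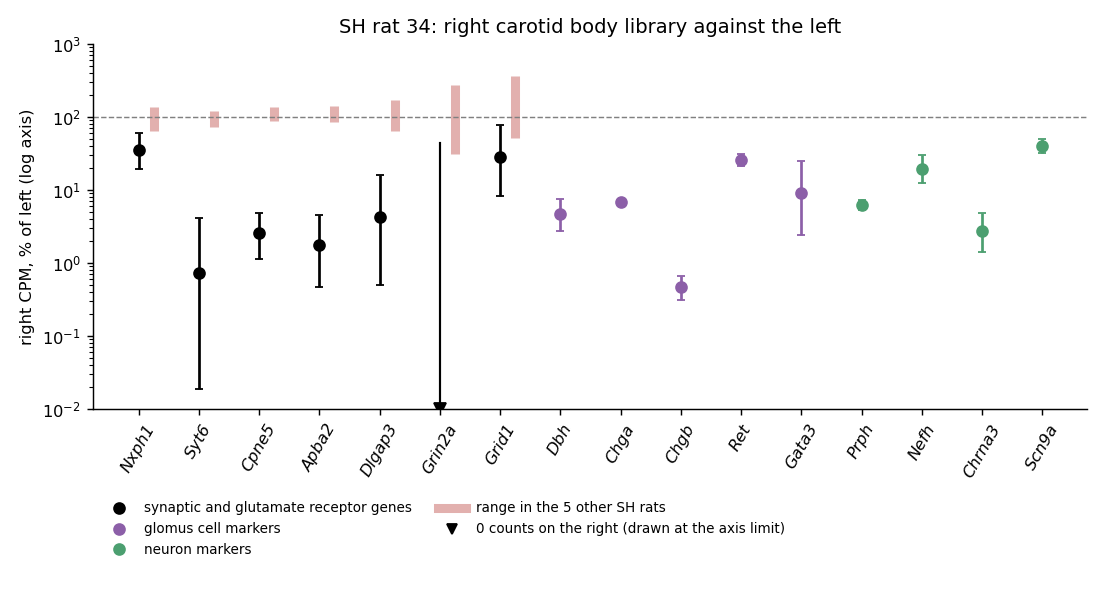
Right CPM as a percentage of left CPM in SH rat 34 (log axis), for the 7 genes and for the paired glomus cell and neuron markers. Bars are exact 95% intervals from counting, red bands the range of the 5 other SH rats and the triangle a count of 0. Nxph1 and Grid1 lie at 35.3 and 27.9%, and Syt6, Cpne5, Apba2 and Dlgap3 under 5%.

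In bulk tissue, more cells of a type and more RNA per cell cannot be told apart, and the markers of several cell types were also higher in SH rats. Of the 14 glomus markers reported, 5 had a symbol, all were tested and 4 passed as higher, with log2 fold changes from 0.33 (Gata3, not passed) to 0.71 (Ret). Their summed level was 924 to 1399 CPM in WKY libraries and 1163 to 2029 CPM in SH libraries. All 4 neuron markers with a symbol, of 10 listed, passed as higher, with a median of 0.61, and summed to 235 to 336 CPM and 390 to 515 CPM. Of 9 macrophage markers 8 passed, with a median of 0.60 (445 to 696 and 514 to 1085 CPM). All 3 mast cell markers with a symbol, of 5, passed with a median of 2.18 (1.42 to 3.67 and 3.66 to 24.4 CPM). All 4 endothelial markers with a symbol, 2 of 4 adipocyte markers, 1 of 4 smooth muscle markers, the single thyroid marker and 0 of 1 sustentacular markers passed. The rows of the names table that were read hold only genes higher in SH rats, so they fixed the direction of these lists. Of the tested genes named in those rows, besides the 7, 64.1% passed. With all 24 libraries, 1 glomus, 1 neuron, 6 macrophage and 3 mast cell markers passed, and 1 each of the endothelial, adipocyte and smooth muscle markers. Their part in the values of the 7 genes was not tested. As to the tissue label, the lowest of the 23 libraries had 463 CPM of Chga, 427 of Chgb, 10.3 of Dbh and 25 of Ret.

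Deviations from the strain means were used to see which genes moved together from library to library, over 23 libraries that share their depth and cell make-up across genes. Over the 21 pairs of the 7 genes, Pearson's r of log2(CPM + 0.5) ran from -0.0525 to 0.527 with a median of 0.205. Syt6 had the highest values, at 0.527 with Grin2a. With Chga and Dbh it had 0.572 and 0.56, and Apba2 had 0.632 with Dbh and 0.175 with Chga. With Dbh the other 5 genes had lower values, from -0.00181 (Nxph1) to 0.322 (Dlgap3). With Chga they ran from -0.155 (Grid1) to 0.275 (Grin2a), and Apba2 lay inside that range. With the neuronal filament gene Prph, r ran from -0.177 (Grid1) to 0.511 (Dlgap3) over the 7 genes. With the smooth muscle gene Acta2, r was -0.443 for Syt6 and from -0.227 (Grin2a) to 0.187 (Cpne5) for the other 6.

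For the 4 genes with at least 50 counts per library on average, the 2 named genes of highest r are given. Syt6 was most like Lhfpl5 (0.822), with no other gene of those tested higher, and Bcl11a (0.743, 10 genes higher). Cpne5 was most like Wfikkn2 (0.804, 0 genes higher) and Dlx6 (0.743, 2 higher). Dlgap3 was most like Tbxa2r (0.785, 0 higher) and Glis1 (0.721, 11 higher). Apba2 was most like Lrrc55 (0.741) and Lef1 (0.737), with 21 and 26 genes higher. Each r was ranked among 14257 genes, most of them without a symbol here.

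The wider synaptic lists hold 180 symbols, 173 besides the 7 genes. Of the 173, 31 had a symbol in the rows of the names table that were read, and all 31 were tested. Of these, 21 (67.7%) passed as higher in SH rats, beside 811 of 1266 (64.1%) of all named genes besides the 7. The median log2 fold change was 0.42 in the 31 and 0.41 in the 1266. A single gene of the 31, Nrcam, lay above the median of the 7 genes. With all 24 libraries 6 of the 31 passed, and in right CBs alone 9.

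**Figure D5:**
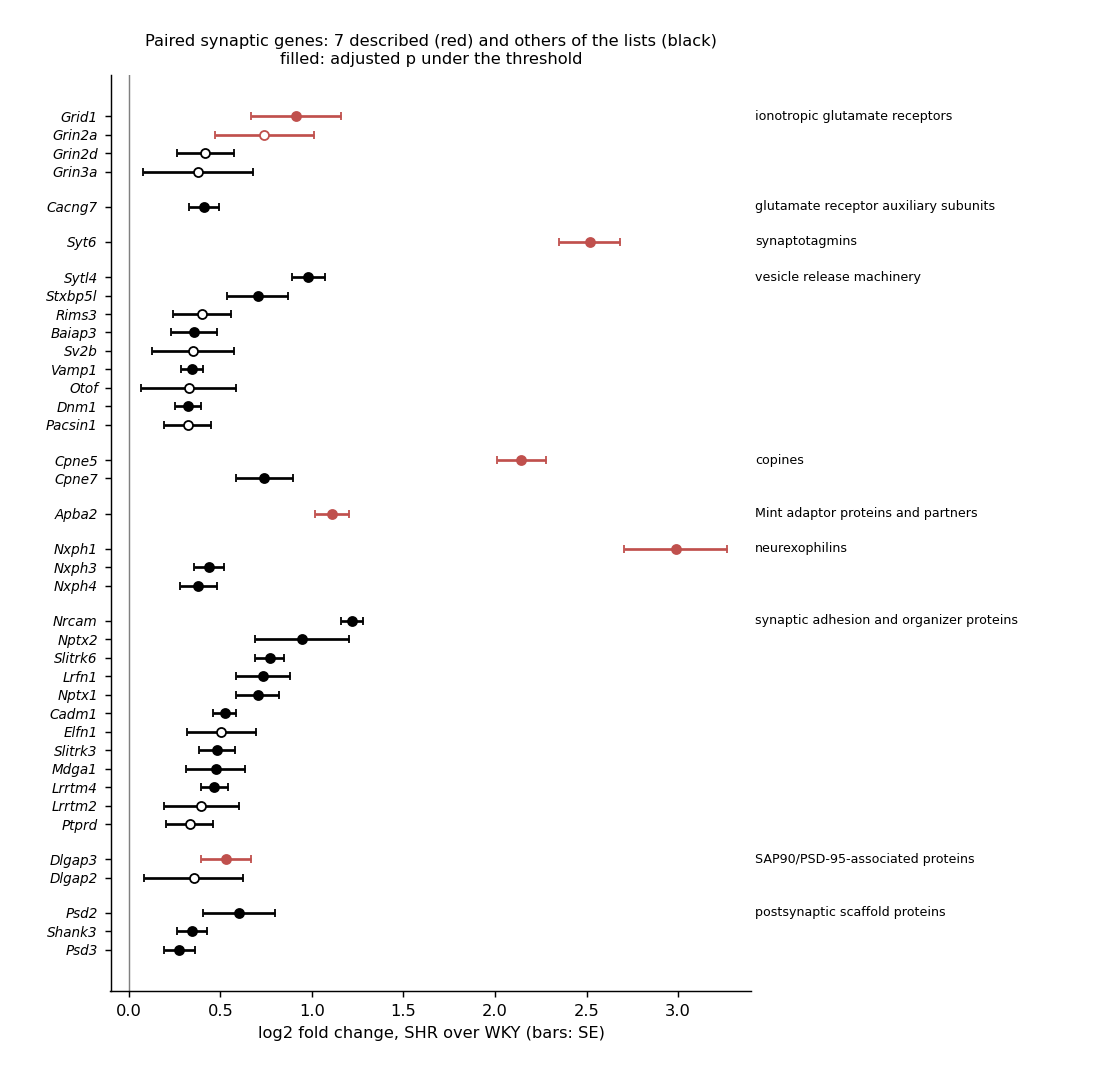
Log2 fold change of SHR over WKY (bars: SE, 23 libraries) for the 7 genes (red) and the 31 other paired genes of the synaptic lists (black), by list. Filled points had an adjusted p under 0.05. Nxph1, Syt6 and Cpne5 lie beyond 2, and the black points lie between 0.28 and 1.22.

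Family members with a symbol are set beside the 7 genes, and since the 7 were chosen for their strain difference, nothing is read from the order. Among ionotropic glutamate receptors, Grin2d and Grin3a, both NMDA receptor subunits, were at 0.42 (SE 0.156) and 0.38 (SE 0.301) and did not pass, beside 0.91 for Grid1 and 0.74 for Grin2a. The neurexophilins Nxph3 and Nxph4 passed at 0.44 (SE 0.0801) and 0.38 (SE 0.102), and the copine Cpne7 at 0.74 (SE 0.158). Dlgap2, like Dlgap3 a scaffold protein, was at 0.35 (SE 0.269) and did not pass. No other synaptotagmin or Mint gene had a symbol here, and no metabotropic glutamate receptor or glutamate transporter.

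Among the tested named genes outside the chosen set, all from rows higher in SH rats, 64.1% passed. Nothing is therefore read from the number passing in each list below. On the releasing side, 5 of 9 paired genes of vesicle release passed. Sytl4, a Rab effector of dense granules, was at 0.98 (SE 0.0897), Stxbp5l, a syntaxin-binding protein, at 0.70 (SE 0.168) and Baiap3, of the Munc13 family, at 0.36 (SE 0.125). Of 12 adhesion and organizer proteins 9 passed, with the neural cell adhesion gene Nrcam at 1.22 (SE 0.0589), the pentraxin Nptx2 at 0.95 (SE 0.258) and Slitrk6, a neurite-regulating membrane protein, at 0.77 (SE 0.0789). On the receiving side, Cacng7, an auxiliary subunit of AMPA receptors, passed at 0.41 (SE 0.0803). The scaffold gene Shank3 passed at 0.35 (SE 0.081). Psd2 and Psd3 share its list but encode Sec7 domain proteins and not scaffold proteins. They passed at 0.60 (SE 0.197) and 0.28 (SE 0.0849). None of the 31 passed between sides, where 3 had an unadjusted p under 0.05.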

How the data were processed

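Per the labels, the authors prepared stranded mRNA libraries and used FastQC, STAR, featureCounts and DESeq2. They deposited raw counts per Ensembl gene for 24 libraries, without normalization. Versions, genome build, annotation release and counting settings are not given in the sources used here, so genes that share reads with a near-identical or overlapping gene are uncertain. Symbols came from the first 1391 rows of the study's table of genes, all higher in SH rats, with 1273 identifiers paired. The 7 genes, the gene lists and the motifs were chosen with earlier results of these data known. Named were the 7 genes, the paired members of their families, the 3 largest changes that passed in other lists, the 2 most alike genes and the paired glomus and neuron markers. A glomus marker of the list is not reported here. Tg, Acta2 and C1qa were chosen after their values were seen.

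Counts were analysed in R 4.3.3 with edgeR 4.0.16 (TMM, robust quasi-likelihood test, mean normalized count above 10, Benjamini-Hochberg adjustment at 0.05). Strain was fitted with side, side with strain, and the interaction with both. DESeq2 1.42.0, limma 3.58.1 (voom) and other settings were alternatives. The tests were checked on simulated counts. Tables and figures used pandas 2.3.3, scipy 1.17.1 and matplotlib 3.10.9. The sides of a rat were averaged for means and SDs, and p-values over libraries treat both CBs of the same rat as separate samples. Left and right CBs of a rat number come from the same animal. Over all genes tested, left and right deviations from the group means correlated with r of -0.0357 to 0.283 in the 11 rats (median 0.115). Every pair of libraries differed by more than counting noise. A count of 3 was taken as the floor.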

Additional observations from a re-analysis of the deposited data

Results flagged for a closer look

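With the right CB of SH rat 34 included, that library lay far from the other 5 right CBs of SH rats in Cpne5, at 1.11 CPM against 46.4 to 61.4, and in Apba2, at 0.495 CPM against 26.5 to 34.4. No other library lay that far from its group in any of the 7 genes, over 35 groups examined, of which chance flags about 1 in 20. In the same library, which the comparison of strains does not use, Nxph1 was at 2.23 CPM, above every WKY library (0 to 1.35 CPM). Some other genes of the synaptic lists, such as Sv2b and Nrcam, were also above every WKY library in it.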

How the results depend on the processing

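The number of the 7 genes that passed between strains ran from 4 to 7 over 23 alternatives (6 to 7 on leaving out each rat in turn). Of all 14258 genes tested, 2863 passed in the main fit, 3133 with DESeq2's Wald test and 2315 with voom. With all 24 libraries 1483 of 14276 passed. The number over all genes is not given for the other alternatives, so nothing about the 7 genes is read from these changes in number. Grin2a passed as well with DESeq2's Wald test, with no side covariate, without WKY rat 33 and without SH rat 34. With left CBs alone 4 passed and with right CBs alone 5. Without SH rat 30, whose right CB had the 215 CPM of Tg, 6 passed. No gene of the 7 changed direction between strains in any of these fits. The strain log2 fold change of Nxph1 moved by more than the spread between rats on 3 occasions, to 3.61 in left CBs, 2.42 in right CBs and 2.63 with the rat number as a replicate block. The other 6 genes did not move by that much. Of the 31 other synaptic genes, 21 passed, and 6 with all 24 libraries, 9 in right CBs alone and 18 to 22 without each rat. Fewer or added libraries set these alternatives apart, and the cause was not tested. With counts summed per rat 17 of the 31 passed, and 19 with voom and the rat as a random block. No gene of the 7 passed between sides (0 to 0 without each rat) or for the interaction (0 to 0 without each rat) in any alternative. For Nxph1 the interaction estimate ran from 0.925 (without WKY rat 41) to 1.66 (without WKY rat 36), with adjusted p of 0.942 or more. Side estimates near 0 changed sign. In SH rats alone they were 0.237 for Nxph1, 0.00749 for Syt6 and -0.0828 for Apba2, and in WKY rats alone 0.102 for Grid1, where Nxph1 had too few counts for the test. With all 24 libraries they were 0.137 for Syt6 and 0.0769 for Dlgap3, and with voom 0.00579 for Syt6 and -0.0232 for Apba2. Leaving out each rat gave -0.0746 to 0.0713 for Syt6, -0.0568 to 0.0461 for Cpne5, -0.0283 to 0.0458 for Apba2, -0.11 to 0.0439 for Dlgap3 and -0.287 to 0.0134 for Grid1.

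With the rat as a replicate block, the side estimate of Apba2 was -0.00747 and no call changed. The numbers 33, 34, 36 and 37 name a WKY rat and an SH rat each. Same-numbered rats deviated from their strains with r of -0.243 to 0.062, so the pairing by number was not used, and with that number as a block 6 of the 7 genes passed. At 0 to 14 counts in WKY libraries for Nxph1, 5 to 28 for Grin2a and 7 to 25 for Grid1, depth limits these 3 genes. Side differences under their errors could not be detected, and differences well above them could have been missed as well.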
